A study of Mus musculus with 6 samples.

Results

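The genes described here are the matrix metalloproteinases, the ADAMTS proteases and the tissue inhibitors of metalloproteinases, read in 6 spontaneous tumors driven by the NT3 transgene. Members were taken by symbol, as every entry named Mmp, Adamts or Timp followed by its family number. This gave 46 of the 23358 gene entries in the table, namely 23 Mmp, 19 Adamts and 4 Timp genes. NT3 is an allele of NIK, the kinase of the alternative NF-κB pathway, that lacks its TRAF3 binding domain and lies in ROSA26 behind a loxP-flanked stop cassette, on a C57Bl/6J background. The Osx-Cre;NT3 tumors 13, 18 and 25 were all from the trunk, at latencies of 150, 168 and 115 days. Their Cre is driven by Osterix in a Tet-OFF design, bred on C57Bl/6J mixed with CD1, and was held off with doxycycline chow until weaning. Of the FSP1-Cre;NT3 tumors, 27 and 36 were perineal and 29 was from the trunk, at latencies of 101, 52 and 72 days. Their Cre is driven by S100a4 on an FVB/n background, a driver that is active in fibroblasts and has also been documented in myeloid cells. Each tumor came from a different female mouse, all 6 carried both NT3 and a Cre, and no tissue without NT3 was analysed here, so nothing here compares tumor with normal tissue. The paper also gives a lower average RNA integrity score for the Osx-Cre;NT3 tumors. Since all Osx-Cre;NT3 tumors were from the trunk and arose later, effects of line, site, latency and background cannot be told apart. The same holds for doxycycline chow and RNA integrity.

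Matrix metalloproteinases are zinc enzymes that cut collagens, gelatin, laminin and other matrix proteins, and they are made as inactive proenzymes, so an RNA level does not measure activity. ADAMTS proteases are secreted relatives that cut proteoglycans, procollagens and von Willebrand factor. The Timps block Mmps by binding the active site, and not every Timp blocks ADAMTS proteases. In solid tumors these genes are read in the tumor cells as well as in fibroblasts, macrophages and neutrophils, and several Mmp promoters are known to hold binding sites for the AP-1 factors.

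Of the 23 Mmp genes, 10 lie in a cluster on chromosome 9, from Mmp13, which starts at base 7272514, to Mmp7, which ends at base 7699585 (GRCm38, GENCODE M21). Promoter sequences from RefSeq (GRCm38.p6) were at hand for 32 of the 46 members, and the 250 bases before each start site were searched on both strands. The AP-1 motif TGANTCA, which reads the same on both strands, stood in 8 of the 10 promoters of the cluster, which were those of Mmp3, Mmp7, Mmp10, Mmp12, Mmp13, Mmp20, Mmp1a and Mmp1b. It stood in 0 of 10 Adamts and 0 of 4 Timp promoters, and in 7.82% of the 27025 genes with a promoter window. A TATA box, TATAAA, stood in 7 of the 10 promoters of the cluster and in 14.3% of those genes. The 2 motifs did not overlap in the windows shown. The consensus for NF-κB was found in 1 of the 32 members, Mmp25, against 4.46% of all genes. These are matches of letters in a window and show no binding. The following sequences compare promoters of the cluster that hold the AP-1 motif, in capitals, with those of Mmp8 and Mmp27, where it was not found. Each is the 110 bases that end just before a RefSeq start site, from 5′ to 3′, and that of Mmp12 precedes the later of its 2 start sites.
Mmp13 (chr9:7272404-7272513, plus strand): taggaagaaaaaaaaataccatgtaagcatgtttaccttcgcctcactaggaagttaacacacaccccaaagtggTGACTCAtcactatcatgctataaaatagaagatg
Mmp12 (chr9:7347264-7347373, plus strand): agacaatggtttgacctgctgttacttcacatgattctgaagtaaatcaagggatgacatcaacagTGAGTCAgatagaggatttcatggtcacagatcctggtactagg
Mmp3 (chr9:7445712-7445821, plus strand): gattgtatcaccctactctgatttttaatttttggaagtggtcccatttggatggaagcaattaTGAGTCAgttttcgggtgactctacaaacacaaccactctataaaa
Mmp10 (chr9:7502232-7502341, plus strand): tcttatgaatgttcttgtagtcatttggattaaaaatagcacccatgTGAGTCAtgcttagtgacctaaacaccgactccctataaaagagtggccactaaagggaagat
Mmp20 (chr9:7628121-7628230, plus strand): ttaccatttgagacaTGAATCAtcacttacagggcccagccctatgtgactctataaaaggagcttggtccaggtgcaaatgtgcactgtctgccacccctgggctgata
Mmp7 (chr9:7691980-7692089, plus strand): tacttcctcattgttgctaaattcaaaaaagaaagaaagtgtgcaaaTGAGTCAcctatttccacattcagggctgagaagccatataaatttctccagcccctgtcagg
Mmp8 (chr9:7558319-7558428, plus strand): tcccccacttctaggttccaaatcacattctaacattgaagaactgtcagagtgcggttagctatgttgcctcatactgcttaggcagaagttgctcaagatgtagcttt
Mmp27 (chr9:7571286-7571395, plus strand): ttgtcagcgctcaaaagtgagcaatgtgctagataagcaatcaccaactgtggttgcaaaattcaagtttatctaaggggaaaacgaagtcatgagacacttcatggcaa
The motif stood from position -95 to position -35, counted from the start site, in these 6 promoters, and TGAGTCA was the form in Mmp3, Mmp7, Mmp10 and Mmp12. The other members are spread over the genome. Mmp14 lies at chr14:54431612-54445364 and Mmp2 at chr8:92827291-92853420, both on the plus strand. Timp1 (chrX:20870166-20874735), Timp3 (chr10:86300372-86349506) and Timp4 (chr6:115241892-115252205) each lie inside a synapsin gene on the opposite strand, which are Syn1, Syn3 and Syn2. The sources used here do not say whether the counting used strand, so reads where exons overlap, as they do for Timp3 and Timp4, cannot be assigned to 1 of the pair with certainty.

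Total counts ran from 51824408 to 163297772, the deepest being tumor 18, so that 3 counts, the limit a count of 0 allows, are worth at most 0.0579 CPM, the unit of counts scaled to library size. This limit covers counting error only. All deposited counts were even, as when both ends of a pair are counted, which would make the true limit higher. Of the labelled tissue, the basal keratinocyte list (6 genes, with Krt5 and Krt14) summed to between 5687 and 14247 CPM and the fibroblast list (8 genes, with Col1a1 and Pdgfra) to between 5273 and 15138 CPM. Cartilage, adipocyte and skeletal muscle lists reached at most 13.4, 128 and 230 CPM.

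Levels are compared between genes by RPKM, the authors' values scaled to gene length and library size, as mean ± SD over the 6 tumors. The membrane protease Mmp14, which cuts fibrillar collagen and activates the proenzyme of Mmp2, had the highest level of the 46, at 125 ± 27.8 RPKM. Mmp7, or matrilysin, a small protease known from glandular epithelium, had 95.2 ± 87.8 RPKM and Mmp2, which cuts gelatin and type IV collagen, 69.0 ± 31.5 RPKM. Mmp14 exceeded Mmp2 in all 6 tumors, whereas the values of Mmp7 ran from below those of both to above them. Timp3, the inhibitor that stays bound to matrix, had 54.4 ± 12.3 RPKM, and Timp2, which also takes part in the activation of Mmp2 by Mmp14, had 47.3 ± 18.8 RPKM. Timp3 exceeded Timp2 in each tumor but 36, where they had 47.5 and 76.7 RPKM, and their ranges overlapped. Timp1, the inhibitor known to be induced by inflammatory signals, had 20.8 ± 12.4 RPKM. Levels of Adamts genes were lower. Adamts2, which removes the N-terminal propeptide of fibrillar procollagens, led them with 14.7 ± 6.24 RPKM, followed by Adamts9, which cuts versican, with 8.27 ± 4.91 RPKM. Adamts2 and Adamts9 together made up between 38.5% and 62.3% of the summed Adamts RPKM of a tumor.

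**Figure D1:**
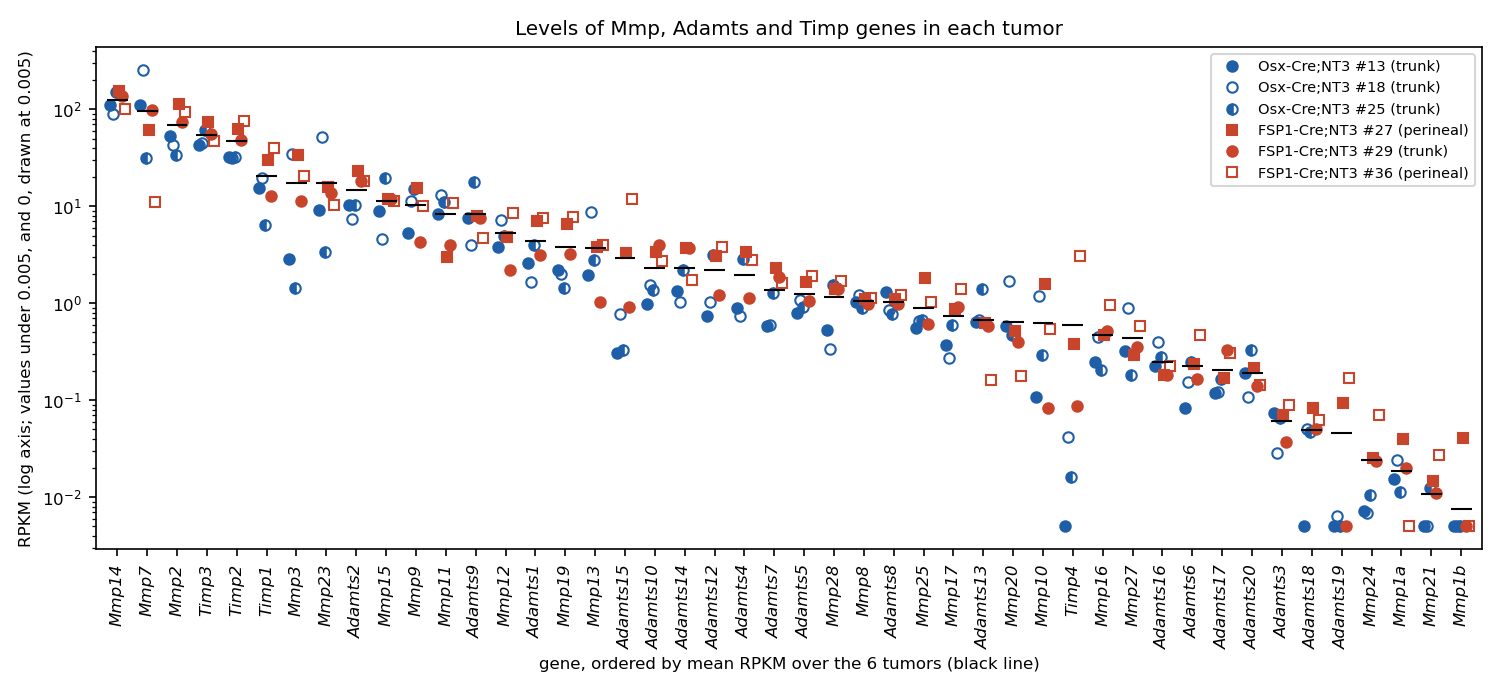
RPKM on a log axis (values under 0.005, and 0, are drawn at 0.005) for each of the 46 genes, ordered by the mean over the 6 tumors (black line). Blue marks are Osx-Cre;NT3 and red marks FSP1-Cre;NT3 tumors, and squares are perineal. Mmp14 leads with 125 RPKM and keeps a narrow spread, whereas Mmp7, Mmp3, Adamts15 and Timp4 spread widely.

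At the other end, 5 members stayed too low in 1 or both comparisons to be tested. Mmp24, a membrane protease of the nervous system, reached at most 0.375 CPM, Mmp21 0.0625 CPM, and the mouse relatives of interstitial collagenase Mmp1a and Mmp1b each 0.0921 CPM. Adamts19 was tested between the sites alone, where it passed the filter on low counts through the perineal tumors. So did Timp4, which passed the filter through the group in which it was high. Counts of values that do not overlap are therefore also given over all 46, and DESeq2 calls also without these genes.

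The mix of Mmp transcripts differed between tumors. In tumor 18, Mmp7 took 48.6% of the summed Mmp RPKM and Mmp14 16.8%. In tumor 25, Mmp14 took 53.7% and Mmp7 11.2%. In tumor 36, Mmp7 took 3.69% and Mmp2 31.7%, against shares of Mmp2 of 8.09% to 26.4% in the other tumors. Mmp2 took more of the sum in each FSP1-Cre;NT3 tumor (20.1% to 31.7%) than in any Osx-Cre;NT3 tumor (8.09% to 16.6%).

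Over the tested genes, the highest tumor exceeded the lowest by at least 10-fold, or the lowest was at 0, in 8 of 41 members (19.5%) and in 11% of all genes. They were Mmp3, Mmp7, Mmp10 and Mmp20 of the chromosome 9 cluster, and Mmp23, Adamts15, Adamts18 and Timp4 outside it. Below, values of single genes are CPM with TMM scaling, which suit comparison of 1 gene between tumors, and are given in the order 13, 18 and 25 for Osx-Cre;NT3, then 27, 29 and 36 for FSP1-Cre;NT3.

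Mmp7 had 130, 297 and 34.2 CPM in the Osx-Cre;NT3 tumors and 61.3, 109 and 12.0 CPM in the FSP1-Cre;NT3 tumors. Tumor 18 was highest and the perineal tumor 36 lowest, and the lines overlapped. Its exons overlap those of an antisense gene, AV064505. The log2 fold change, FSP1-Cre;NT3 over Osx-Cre;NT3, was -1.34 (SE 0.94, adjusted p = 0.551, from the quasi-likelihood test of edgeR after the adjustment of Benjamini and Hochberg, as is each adjusted p that follows unless DESeq2 is named).

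Mmp3, or stromelysin-1, which cuts many matrix proteins and activates other proenzymes, had 6.79, 82.7 and 3.18 CPM, then 69.1, 25.6 and 45.6 CPM. Tumors 13 and 25 were low and tumor 18 was the highest of all, so the Osx-Cre;NT3 values lay on both sides of the FSP1-Cre;NT3 values. Its neighbour Mmp10, or stromelysin-2, had 0.248, 2.70 and 0.620 CPM, then 3.04, 0.180 and 1.16 CPM. Tumors 18 and 27 were the highest for both stromelysins. Mmp3 and Mmp10 share 8.39% and 8.37% of their 50-base stretches, so part of their reads may be interchangeable. The log2 fold changes between lines were 0.60 (SE 1.13, adjusted p = 0.84) for Mmp3 and 0.28 (SE 1.15, adjusted p = 0.929) for Mmp10, and that of Mmp10 was -0.90 without tumor 27. Without tumor 18, Mmp3 had a log2 fold change of 3.23 by edgeR and passed the threshold with DESeq2 (adjusted p = 3.68e-06; edgeR adjusted p = 0.557), so that this tumor decides its call with DESeq2.

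The collagenase Mmp13, which cuts fibrillar collagens in bone and cartilage, had 7.04, 31.0 and 9.24 CPM, then 11.4, 3.46 and 13.1 CPM. Mmp12, the elastase of macrophages, had 18.5, 34.2 and 22.1 CPM, then 19.8, 10.1 and 38.1 CPM. In GENCODE its exons overlap those of Mmp1b on the opposite strand, but its deposited entry ends at base 7360461, before Mmp1b. Mmp20, or enamelysin, known from tooth enamel, had 2.53, 7.38 and 1.89 CPM, then 1.90, 1.64 and 0.719 CPM. Mmp12 was highest in tumor 36, whereas Mmp13 and Mmp20 were highest in tumor 18. Over the 10 genes of the cluster, tumor 18 was highest in 6 and lowest in 0, whereas over all genes tested it was highest in 22.8% and lowest in 25.2%. Mmp8, the collagenase of neutrophils, stayed between 2.68 and 3.98 CPM, and Mmp27 between 0.366 and 1.97 CPM. For none of these did the lines or the sites separate. The intervals were wide: for Mmp20, log2 -1.47 (95% interval -3.05 to 0.11, adjusted p = 0.463), and for Mmp13, -0.76 (-2.44 to 0.93, adjusted p = 0.658).

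**Figure D2:**
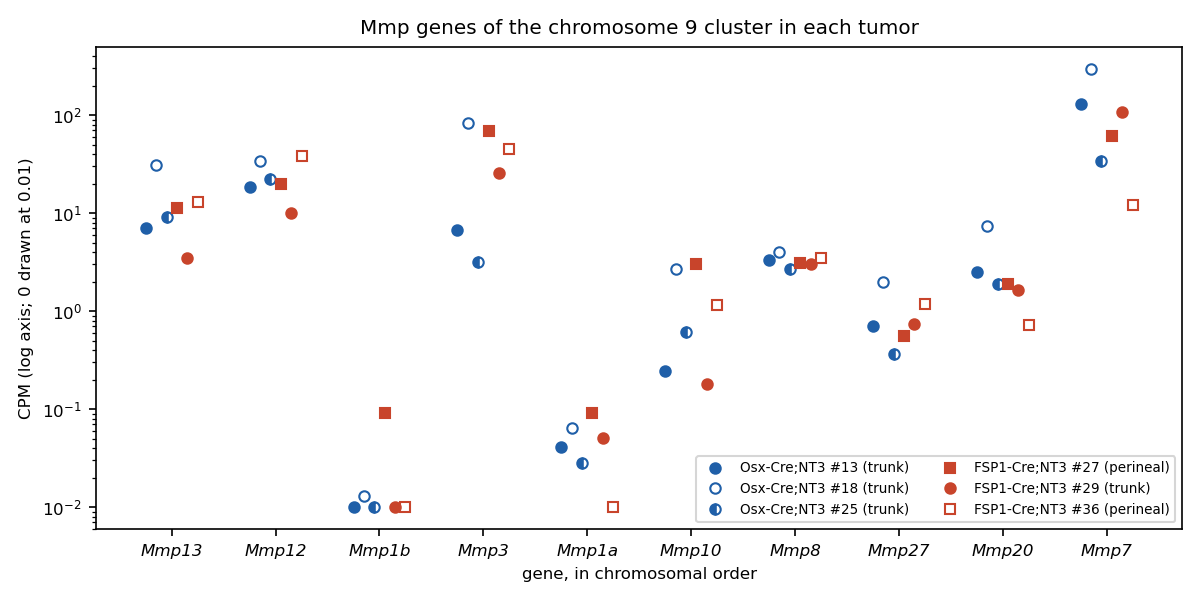
CPM on a log axis (0 drawn at 0.01) of the 10 Mmp genes of the chromosome 9 cluster, in their order along the chromosome, with 1 mark per tumor. Tumor 18 (open blue circles) is highest in 6 of the 10, and Mmp8 lies within 2.68 to 3.98 CPM in all 6 tumors.

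Outside the cluster, Mmp23, a protease held in the membrane by its N-terminus, had 17.7, 97.9 and 6 CPM, then 25.8, 24.7 and 18.4 CPM. Tumor 18 was again the highest. Mmp11, or stromelysin-3, known from fibroblasts around carcinomas, had 24.8, 39.0 and 30.3 CPM, then 7.58, 11.2 and 30.1 CPM. Tumors 27 and 29 were low, but tumor 36 lay within the range of the Osx-Cre;NT3 tumors, and the log2 fold change between lines was -0.95 (SE 0.52, adjusted p = 0.483). In GENCODE the exons of Mmp11 overlap those of Chchd10 on the opposite strand. The deposited Mmp11 entry, however, ends at base 75932463, before Chchd10 starts at base 75933130.

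Mmp14 was the steadiest of the abundant proteases, with 388, 304 and 484 CPM, then 459, 446 and 326 CPM. Its log2 fold change was 0.07 between lines (95% interval -0.54 to 0.67) and -0.05 between sites (-0.73 to 0.63), so changes beyond 1 log2 unit lay outside both intervals. Both directions flipped when single tumors were left out, and that between sites also with library sizes alone. Mmp9, the gelatinase of neutrophils and macrophages, ranged from 16.8 to 58.5 CPM, and the membrane protease Mmp15 from 26.0 to 104 CPM, with log2 fold changes between lines of -0.19 and 0.00.

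The comparison of lines asks whether tumors made by the Osterix and the FSP1 driver differ in these genes. Several proteases and inhibitors had higher values in every FSP1-Cre;NT3 tumor, among them Mmp2, Mmp19, Adamts2, Adamts10, Adamts15, Timp2 and Timp4, from 1.81-fold for Timp2 and 2-fold for Adamts2 upward, but no member passed the main test. Of 41 members tested, 0 had an adjusted p under 0.05, as had 0% of the 16415 genes, and the smallest among members was 0.425, for Adamts2. At an unadjusted p under 0.05 there were 10 members (24.4%), all higher in FSP1-Cre;NT3, against 10.8% of all genes in either direction. Among the 10 is Timp4, which passed the filter through the group in which it was high. With DESeq2, 7 members passed (17.1%), all higher in FSP1-Cre;NT3, against 2.11% of genes that did so in that direction. These 7 are the genes listed at the outset, and without Timp4 they were 6 of 40 (15%). None of the 7 kept its DESeq2 call in all 6 fits that left out 1 tumor. Adamts2 (lost without tumor 27, adjusted p = 0.0933), Adamts10 (lost without 13, 0.0801) and Timp4 kept it in 5, Adamts15 in 4, Mmp2 and Mmp19 in 3 and Timp2 in 2.

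Counts that need no model gave 9 members (22%) higher in every FSP1-Cre;NT3 tumor than in any Osx-Cre;NT3 tumor, against 9.03% of all genes, and 2 members lower in every one, Adamts13 and Adamts16, against 7.97% of all genes. In all, 26.8% of members and 17% of genes did not overlap. Over all 46 members without a filter, 10 (21.7%, with Mmp24) were higher in every FSP1-Cre;NT3 tumor, against 8.27% of 20123 entries. Without a filter, 32 of the 46 members had a log2 fold change above 0, with a median of 0.63, beside 52.2% and 0.04 over 20123 entries. By family these were 13 of 23 Mmp genes (median 0.06), 15 of 19 Adamts genes (median 0.76) and 4 of 4 Timp genes (median 0.85). With tumor site as a covariate the median over the tested members was -0.037, and 2 of 41 had an unadjusted p under 0.05, against 2.15% of genes.

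Among the procollagen proteinases, Adamts2 had 51.7, 36.5 and 47.3 CPM, then 99.2, 85.8 and 85.4 CPM. The 3 FSP1-Cre;NT3 tumors lay close together and above the others. The log2 fold change was 1.00 (SE 0.20, 95% interval 0.53 to 1.46, adjusted p = 0.425; DESeq2 adjusted p = 0.0027), and it was 0.93 with site as a covariate. Adamts14, of the same activity, ranged from 6.96 to 14.2 CPM and from 11.2 to 24.5 CPM, overlapping between lines. Adamts3, the third of this activity, reached at most 0.844 CPM.

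Adamts10, a protease that acts on fibrillin microfibrils, had 5.38, 8.26 and 6.84 CPM, then 15.4, 20.4 and 13.9 CPM, a log2 fold change of 1.28 (SE 0.29, adjusted p = 0.432; DESeq2 adjusted p = 0.0041). The trunk tumor 29 was the highest. With site as a covariate the value was 1.58 (SE 0.38, adjusted p = 1). Adamts7, which cuts cartilage oligomeric matrix protein, had 4.14, 4.17 and 8.42 CPM, then 13.9, 12.5 and 10.6 CPM, and the log2 fold change was 1.15 (SE 0.37, adjusted p = 0.458). In GENCODE its exons overlap those of Tbc1d2b on the opposite strand. The deposited Adamts7 entry, however, ends at base 90200102, before Tbc1d2b starts at base 90202027. Adamts12, which cuts the same protein, had 6.13, 8.60 and 24.0 CPM, then 21.6, 9.57 and 29.7 CPM, and the lines overlapped.

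Mmp17, a membrane protease held by a lipid anchor, had 1.74, 1.25 and 2.53 CPM, then 3.41, 3.98 and 6.16 CPM. All FSP1-Cre;NT3 tumors lay above the others, with a log2 fold change of 1.30 (SE 0.44, adjusted p = 0.458). Mmp2 had 217, 171 and 128 CPM, then 397, 281 and 356 CPM, and the log2 fold change was 1.00 (SE 0.26, adjusted p = 0.441; DESeq2 adjusted p = 0.037). The trunk tumor 29 had the lowest Mmp2 of its line. Mmp19, a protease of the basement membrane and of skin, had 10, 9.08 and 6.14 CPM, then 25.4, 13.9 and 33.3 CPM, with a log2 fold change of 1.52 (SE 0.38, adjusted p = 0.441; DESeq2 adjusted p = 0.017). With site as a covariate it was 0.72 (SE 0.40) for Mmp19 and 0.71 (SE 0.37) for Mmp2. DESeq2 lost the call of Mmp19 without tumors 13, 27 or 36 (adjusted p = 0.0719, 0.103 and 0.171). Tumor 29 again lay between the Osx-Cre;NT3 tumors and the perineal ones. The exons of Mmp19 overlap those of Tmem198b on the opposite strand.

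Against this direction, Adamts13, which cuts von Willebrand factor, had 3.93, 4.04 and 7.89 CPM, then 3.22, 3.33 and 0.907 CPM. Every FSP1-Cre;NT3 tumor was lower, by little in tumors 27 and 29, and the log2 fold change was -1.09 (SE 0.59, adjusted p = 0.48). Adamts9, the second most abundant Adamts, had 61.2, 31.8 and 131 CPM, then 54.8, 57.2 and 35.5 CPM, with a log2 fold change of -0.61 (SE 0.50, adjusted p = 0.617). Tumor 25 set its range.

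**Figure D3:**
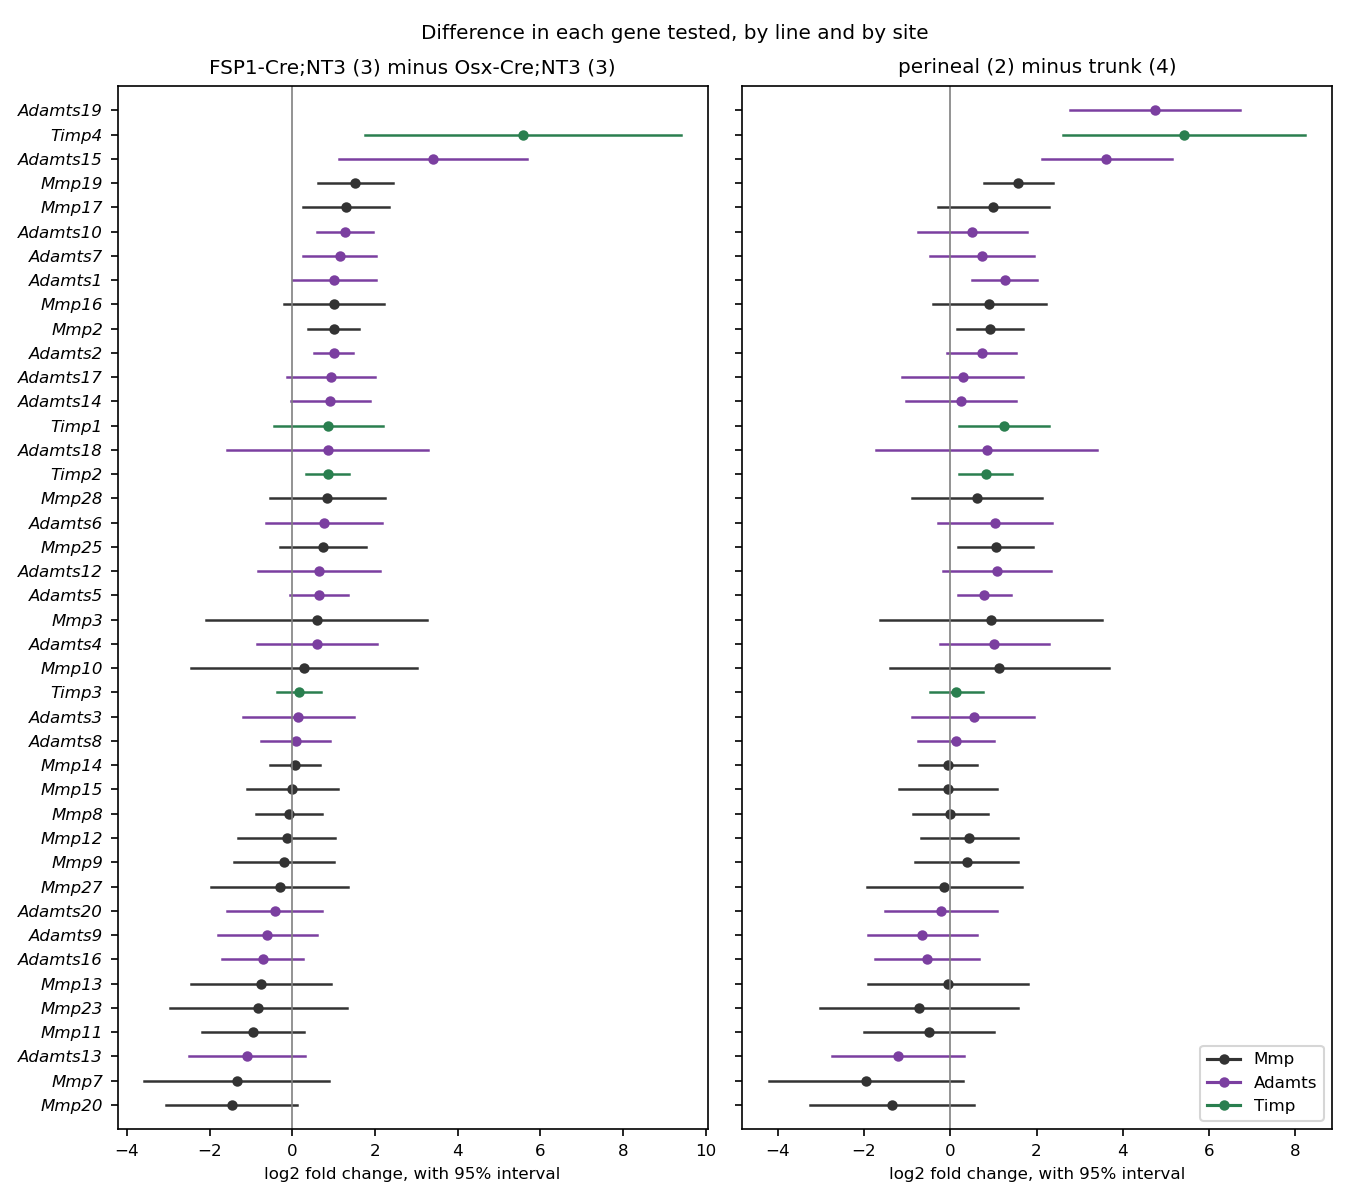
Log2 fold change with its 95% interval for each gene tested, FSP1-Cre;NT3 (3 tumors) minus Osx-Cre;NT3 (3 tumors) on the left and perineal (2) minus trunk (4) on the right, from edgeR, in 1 order for both. Timp4, Adamts15 and Mmp19 stand toward the right and Mmp7 and Mmp20 toward the left in both panels, which share tumors, and no gene had an adjusted p under 0.05.

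The comparison of sites set the perineal tumors 27 and 36 against the 4 trunk tumors. Both comparisons use the same tumors, and the perineal tumors are all of the FSP1-Cre;NT3 line. The largest log2 fold changes toward the perineal tumors were those of Adamts15, Adamts19, Timp4, Mmp19 and Adamts1, and again no member passed the main test. Of 42 members tested, 0 had an adjusted p under 0.05, beside 0% of 16971 genes, and the smallest adjusted p was 0.263. An unadjusted p under 0.05 was reached by 10 members (23.8%), all higher in perineal tumors, and by 10.5% of genes in either direction. Among the 10 are Adamts19 and Timp4, which passed the filter through the perineal tumors. DESeq2 called the 5 genes named first (11.9%), beside 3.31% of genes called higher, and without Adamts19 and Timp4, 3 of 40 members (7.5%). None of these calls was made without tumor 36, where Adamts19 and Timp4 got no adjusted p. Perineal values lay above all trunk values in 11 members (26.2%), against 10.3% of genes, and below all of them in 1, Adamts13, against 9.36%, so that 28.6% of members and 19.6% of genes did not overlap. Over all 46 members without a filter, 12 (26.1%, with Mmp21) were higher in both perineal tumors, against 9.85% of entries. Over all 46, 32 had a log2 fold change above 0, with a median of 0.67, beside 48.4% and -0.02 over all entries. With line as a covariate, 3 of 42 members and 1.55% of genes had an unadjusted p under 0.05.

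Adamts15, a protease of proteoglycans, showed the widest range of the proteases that were detected in every tumor, with 2.44, 6.07 and 2.42 CPM, then 22.3, 6.80 and 87.8 CPM. Tumor 36 was 36.3 times as high as the lowest tumor, and the trunk tumor 29 lay just above tumor 18. The log2 fold change was 3.62 between sites (SE 0.64, adjusted p = 0.263; DESeq2 adjusted p = 4e-05) and 3.41 between lines (SE 0.96, adjusted p = 0.458; DESeq2 adjusted p = 0.0044). The value between lines was 0.89 (SE 0.84) with site as a covariate, which sets tumor 29 alone against the Osx-Cre;NT3 tumors. Without tumor 36 the value was 1.99, and DESeq2 then did not call it (adjusted p = 0.126). Without tumor 27, which leaves tumor 36 as the only perineal tumor and assumes that it varies like the others, Adamts15 and Timp4 passed edgeR's test between sites, with adjusted p of 0.018 and 0.042, as did 3.2% of all genes. Without tumor 36, Adamts15 had a log2 fold change between sites of 2.33 (adjusted p = 1), and DESeq2 called 0 members.

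Adamts19, a protease of little known substrate, had 0, 0.039 and 0.0282 CPM, then 0.491, 0.0257 and 0.969 CPM, so that the 4 trunk tumors held at most 6 counts each and tumors 27 and 36 held 32 and 62. Its log2 fold change between sites, 4.74 (SE 0.84, adjusted p = 0.263; DESeq2 adjusted p = 0.0022), depends on these near-zero counts. Adamts1, which cuts aggrecan and versican, had 16.9, 10.7 and 23.7 CPM, then 39.1, 19.2 and 46.1 CPM. The trunk tumor 29 lay within the Osx-Cre;NT3 range, and the log2 fold change between sites was 1.26 (SE 0.32, adjusted p = 0.283; DESeq2 adjusted p = 0.036). Adamts5, the main aggrecanase of mouse cartilage, had 8.65, 11.5 and 9.04 CPM, then 15.3, 10.8 and 19.4 CPM, with a log2 fold change between sites of 0.79 (SE 0.26, adjusted p = 0.355). Mmp25, a lipid-anchored protease of leukocytes, had 2.48, 2.92 and 2.82 CPM, then 6.94, 2.57 and 4.25 CPM, with a log2 fold change of 1.05 (SE 0.36, adjusted p = 0.383). In these 4 genes tumor 29 was like the Osx-Cre;NT3 tumors.

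The trunk tumor 29 thus sorted the members into 3 orders. In 5 of the 41 (12.2%), Mmp2, Mmp19, Adamts15, Timp2 and Timp4, it lay between the Osx-Cre;NT3 and the perineal tumors, as in 4.42% of genes. In 4 (9.76%), Mmp17, Adamts2, Adamts7 and Adamts10, it lay among its own line and above the other, as in 4.61% of genes. In 5 (12.2%), Adamts1, Adamts5, Adamts18, Mmp25 and Timp1, it lay within the range of the Osx-Cre;NT3 tumors, under both perineal tumors, as in 4.75% of genes. Adamts18 belongs there on few counts, with 0, 0.325 and 0.282 CPM, then 0.460, 0.308 and 0.375 CPM. Timp4 is counted in the first order although it passed the filter through the group in which it was high. With 1 trunk tumor in the FSP1-Cre;NT3 line these orders were not tested.

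**Figure D4:**
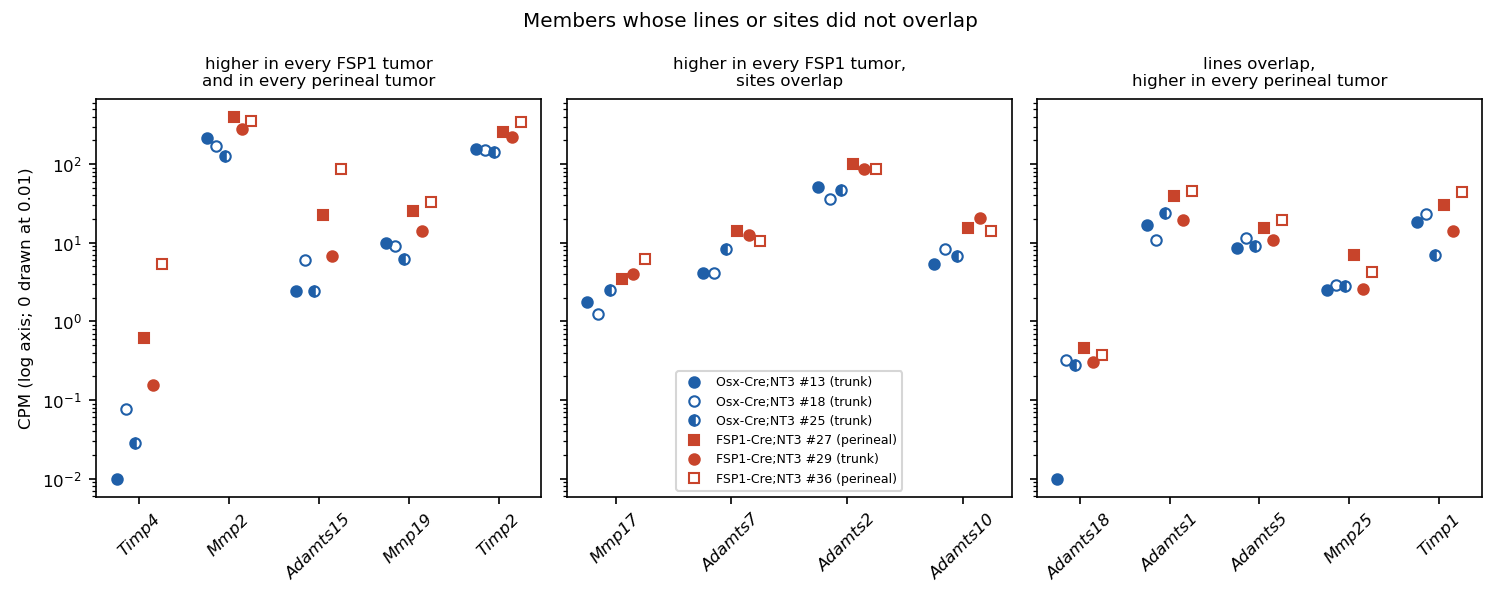
CPM on a log axis (0 drawn at 0.01) of the 14 tested members in which lines or sites did not overlap upward, in 3 panels by the place of the FSP1-Cre;NT3 trunk tumor 29 (filled red circle). It lies between blue marks and red squares on the left, with the other red marks in the middle, and among the blue marks on the right.

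The remaining tested members overlapped between lines and between sites, apart from Adamts16, which lay between 1.49 and 2.59 CPM in Osx-Cre;NT3 and between 1.01 and 1.38 CPM in FSP1-Cre;NT3 tumors. Adamts4 and Adamts8, which cut proteoglycans, ranged from 3.60 to 13.9 CPM and from 3.46 to 6.29 CPM. Adamts20, of the same group, ranged from 1.25 to 3.58 CPM. Adamts6 and Adamts17, relatives of Adamts10, ranged from 0.538 to 2.81 CPM and from 0.952 to 2.51 CPM. Mmp16, a membrane protease that activates Mmp2, ranged from 1.15 to 5.38 CPM, and Mmp28, or epilysin, known from keratinocytes, from 1.03 to 4.91 CPM.

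The inhibitors had log2 fold changes above 0 in both comparisons. Timp2 had 157, 152 and 144 CPM in the Osx-Cre;NT3 tumors, then 254, 221 and 344 CPM in the FSP1-Cre;NT3 tumors. The former lay within a narrow range and the latter all above it. The log2 fold change was 0.86 between lines (SE 0.22, adjusted p = 0.441; DESeq2 adjusted p = 0.039) and 0.82 between sites (SE 0.26, adjusted p = 0.345). Timp1 had 18.3, 23.3 and 6.96 CPM, then 30.3, 14.1 and 44.4 CPM. Both perineal tumors exceeded every trunk tumor, with a log2 fold change between sites of 1.25 (SE 0.44, adjusted p = 0.392), and the value between lines, 0.87 (SE 0.56, adjusted p = 0.522), turned to -0.20 with site as a covariate.

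Timp3 had 265, 275 and 353 CPM, then 397, 325 and 275 CPM. It overlapped in both comparisons, with log2 fold changes of 0.16 (95% interval -0.38 to 0.70) between lines and 0.14 (-0.47 to 0.75) between sites, and the first was at -0.0049 without tumor 27. Timp4, the inhibitor known from heart and fat, had 0, 0.0779 and 0.0282 CPM, then 0.614, 0.154 and 5.38 CPM. Tumor 36 held 344 of its counts and the other 5 tumors between 0 and 40, and its log2 fold changes, 5.58 between lines (SE 1.60, adjusted p = 0.458; DESeq2 adjusted p = 0.0056) and 5.42 between sites (SE 1.19, adjusted p = 0.263; DESeq2 adjusted p = 0.001), depend on tumors at or near 0. Between lines the value was 1.86 (SE 1.51) with site as a covariate and 3.16 without tumor 36, where the DESeq2 call was lost (adjusted p = 0.489). The adipocyte list (5 genes, with Adipoq and Plin1) summed to 36.2 and 128 CPM in tumors 27 and 36. In trunk tumors it summed to between 2.53 and 12.7 CPM. All 5 adipocyte genes were higher in both perineal tumors, as were 10.3% of all genes tested. The part of these cells in the values of Timp4 was not tested.

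Per length, the Timp sum was 90.6, 96.1 and 100 RPKM in the Osx-Cre;NT3 tumors and 168, 117 and 168 RPKM in the FSP1-Cre;NT3 tumors, so that the lines did not overlap. The Adamts sum was 28.9, 22.2 and 47.4 RPKM, then 62.0, 45.4 and 60.3 RPKM, with tumor 25 above tumor 29. The Mmp sum was 324, 528 and 283 RPKM, then 437, 366 and 298 RPKM, and overlapped. The ratio of summed Mmp and Adamts to summed Timp RPKM was 3.89, 5.73 and 3.30, then 2.98, 3.52 and 2.14. It was highest in tumor 18, where Mmp7 was highest, and lowest in tumor 36, where Mmp7 was lowest, and the lines overlapped through tumors 25 and 29. On CPM, which is not scaled to gene length and so does not suit sums over genes, the ratio was 2.48, 2.90 and 2.39, then 2.27, 2.30 and 2.05. There the lines did not overlap. These are ratios of transcripts and no test was made of them. Timp3 took the largest share of the Timp sum in each tumor but 36, where Timp2 took 45.8% and Timp3 28.3%.

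**Figure D5:**
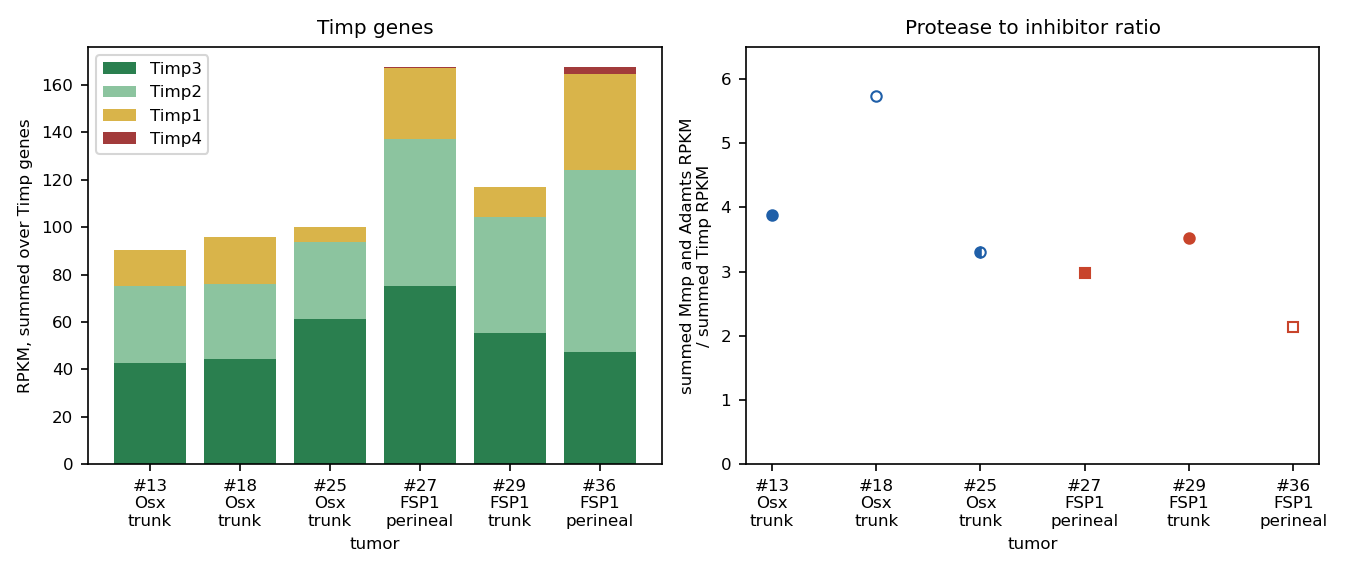
Left, RPKM of the 4 Timp genes stacked for each tumor. Right, the ratio of summed Mmp and Adamts RPKM to summed Timp RPKM. The perineal tumors 27 and 36 reach Timp sums of 168 RPKM, and the ratio runs from 2.14 in tumor 36 to 5.73 in tumor 18.

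Genes around the family were read from lists, whose counts stand against 9.03% of all genes higher in every FSP1-Cre;NT3 tumor and 52.2% of entries with a log2 fold change above 0. Of 9 inhibitors outside the Timp family, 0 passed the test in either comparison, all 9 had log2 fold changes above 0 between lines, and 3 lay higher in every FSP1-Cre;NT3 tumor. These were Reck, a membrane inhibitor of Mmps, with 4.14, 7.15 and 5.21 CPM, then 10.7, 14.1 and 15.4 CPM, and the proteoglycans Spock2 and Spock3. Of 9 activators and cofactors tested, 0 passed, 7 were above 0 and 3 lay higher in every FSP1-Cre;NT3 tumor. These were Pcsk5, Pcsk6 (5.46 to 15.6 CPM against 1.77 to 2.59 CPM) and Lrp1 (278 to 414 CPM against 88.3 to 232 CPM). Lrp1 is an endocytic receptor that clears proteases and Timps. Bsg, which is known to induce Mmps, was lower in every FSP1-Cre;NT3 tumor (276 to 361 CPM against 420 to 474 CPM). Of 15 ADAM and ADAMTS-like relatives, 0 passed, 9 were above 0 and 4 lay higher in every FSP1-Cre;NT3 tumor. Of 17 matrix substrates, 0 passed, 17 were above 0 and 9 lay higher in every FSP1-Cre;NT3 tumor, among them Col1a1, with 886 to 1529 CPM against 2394 to 4002 CPM. Of these 9, 5 (Col1a1, Col1a2, Col3a1, Dcn and Lum) are also among the fibroblast markers. Versican (Vcan), a substrate of Adamts1 and Adamts9, overlapped, with a log2 fold change of 0.12 (SE 0.29).

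Markers of some cell types, though not of all, also differed between the lines or the sites. All 8 fibroblast markers were higher in every FSP1-Cre;NT3 tumor, as were 9.03% of all genes tested. The marker sums were 11710, 15138 and 12870 CPM, against 5273 to 6809 CPM in the Osx-Cre;NT3 tumors. In bulk tumors, fewer cells of a type and less RNA per cell cannot be told apart. By site, 10.3% of all genes tested were higher in both perineal tumors. So were 5 of the 6 tested neutrophil markers (sums of 165 and 479 CPM against 22.1 to 65.4 CPM, with Elane at or near 0 in all 6 tumors). All 3 B cell markers (2.21 and 7.50 CPM against 0.248 to 1.87 CPM) and 4 of 5 endothelial markers (361 and 287 CPM against 110 to 247 CPM) were too. Of the endothelial markers, Pecam1 and Tek were also higher in every FSP1-Cre;NT3 tumor, beside the 9.03% of all genes. Tumor 36 stood apart with 4660 CPM of simple epithelium markers, against 566 to 1174 CPM, and 2325 CPM of smooth muscle and myoepithelium markers, against 266 to 532 CPM. It was also the highest tumor in 14 of 41 members (34.1%) and in 24.8% of all genes tested. The macrophage sums, 1466 to 3532 CPM with Lyz2 as the largest part, overlapped between lines. Of the 7 macrophage genes, 2 had a log2 fold change above 0 between lines, with a median of -0.53 over the list. Between sites these were 3, with a median of -0.28. Lyz2 was lower in both perineal tumors, as were 9.36% of all genes tested. Mrc1 went against most of the list, with 16.2, 42.5 and 18.8 CPM, then 114, 45.9 and 243 CPM. It was higher in every FSP1-Cre;NT3 tumor and highest in the perineal ones. The part of these cells in the values of Mmp2, Timp2, Adamts2, Adamts15 and the others was not tested. Without tumor 36, DESeq2 called 3 members between lines, Adamts2 and Adamts10, both higher, and Mmp11, lower in FSP1-Cre;NT3, in place of 7.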

How the data were processed

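RNA of 6 tumors, each of 1 mouse, was sequenced at the authors' centre. The authors deposited raw counts per gene entry and RPKM values, per the labels on build mm10. The submitters' processing notes list bcl2fastq, TopHat2 2.0.6 and HTSeq, whereas the study's methods name HISAT2 and featureCounts. The annotation and the use of strand are not given in the sources used here. Total counts ran from 51824408 to 163297772, every count was even, and precision is set by how few tumors there are. Deposited counts were tested with edgeR 4.0.16 (R 4.3.3): filterByExpr, TMM, glmQLFit and glmQLFTest, two-sided, Benjamini-Hochberg adjustment over all genes tested, threshold 0.05, no covariate. CPM are TMM-scaled. The 43 repeated symbols stayed separate entries. RPKM values of the authors served only to compare genes of different length.

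Groups came from the labels. Alternatives were DESeq2 1.42.0, other scalings and filters, site or line as covariate, single lines or sites, and each tumor left out. The fits were tested on simulated data. Per-tumor values are given for the Timps, the highest member of each role group, the 10 members of lowest unadjusted p in each comparison, the 8 widest in range and 7 Mmps the study lists. Members and lists were chosen with earlier results of these data known. Of 121 list genes 120 were found, and some are not reported here one by one. The filterByExpr step kept 41 members between lines and 42 between sites. Gene positions and exon overlaps are from GENCODE M21, in which all 46 members were found, 29 with both ends within 1000 bases of the deposited position, and promoters are from RefSeq (GRCm38.p6). Shared sequence is the share of a gene's 50-base exon stretches found in another gene.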

Additional observations from a re-analysis of the deposited data

Results flagged for a closer look

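Adamts18 in tumor 13 stood far below the other tumors, by Dixon's criterion at the 95% level. Its log2 CPM with a prior count of 2 was -4.59 in tumor 13, against -1.69 in the nearest tumor, both among all 6 tumors (gap over range 0.814) and among the 4 trunk tumors (0.959). The tumor had 0 counts of the gene, and the highest tumor 0.460 CPM. In all, 82 groups of values were examined, of which chance alone would mark 4.1, and these 2 were found.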

How the results depend on the processing

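With edgeR the number of members called was 0 between lines under every alternative run, and between sites under all but the fit without tumor 27 (2 members: Adamts15 and Timp4), so leaving out each tumor in turn gave 0 to 2. DESeq2 called 7 members between lines and 5 between sites. DESeq2 without single tumors was added after the data had been seen. Between lines it called 3 without tumor 13, 27 or 36, 6 without tumor 18, 8 without tumor 29 and 14 without tumor 25, where 21.6% of all genes were called. Between sites it called 4 without tumor 13, 5 without 18, 8 without 25, 6 without 27 and 0 without 36. Without tumor 29 both comparisons are the same fit, since the FSP1-Cre;NT3 tumors left are the perineal ones. Halved counts, added at the same point, gave 0 in both comparisons with edgeR. The cause of this spread was not tested.

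Line values with site as a covariate rest on tumor 29 alone against the Osx-Cre;NT3 tumors. Site values with line as a covariate rest on tumors 27 and 36 against tumor 29 alone. Over all tested members, 8 log2 fold changes turned sign between lines with site as a covariate and 9 between sites with line as a covariate, and none had passed edgeR's test. Those were, between lines, Mmp3, Mmp10, Mmp25, Adamts3, Adamts4, Adamts8, Adamts12 and Timp1, and between sites Mmp11, Mmp13 (-0.05 to 1.82), Mmp27, Adamts7, Adamts10 (0.51 to -0.49), Adamts14, Adamts16, Adamts17 and Adamts20. The members followed through every alternative and turned are given next. Between lines, Mmp10 was -2.73 with site as a covariate, -2.74 on trunk tumors alone, -0.90 to 1.73 over the fits without 1 tumor, and, with DESeq2, -0.23, -0.06 and -0.84 without tumors 13, 25 and 27. Mmp3 was -0.27 with site as a covariate, -0.29 on trunk tumors alone and -0.02 to 3.23 without 1 tumor. Timp1 was -0.20 with site as a covariate and on trunk tumors alone, and 0.45 to 1.22 without 1 tumor. Mmp12 ranged from -0.74 to 0.18 without 1 tumor and was 0.15 and 0.21 with DESeq2 without tumors 18 and 29. Mmp14 ranged from -0.09 to 0.20 and was -0.10, -0.02 and -0.02 with DESeq2 without tumors 18, 27 and 29. Timp3 ranged from -0.0049 to 0.28. Between sites, Mmp11 was 0.74 with line as a covariate and on FSP1-Cre;NT3 tumors alone, -1.80 to 0.15 without 1 tumor, and 0.19 with DESeq2 without tumor 27. Mmp12 ranged from -0.10 to 0.80 and was -0.13 with DESeq2 without tumor 36. Mmp14 was 0.05 with library sizes alone, ranged from -0.34 to 0.18, and was 0.02 and 0.14 with DESeq2 without tumors 25 and 36. Timp3 ranged from -0.18 to 0.38 and was -0.14 with DESeq2 without tumor 27. The median ratio of proteases to Timps over the tumors, 3.41, was 2.34 on CPM and 2.98 for Mmp genes alone. No paired analysis was possible because the mouse numbers are not shared between the groups. With 3 tumors a line and 2 perineal tumors, large differences can miss the threshold, and depth limits Adamts18, Adamts19 and Timp4.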

Other observations

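In the plasminogen system, which activates several proenzymes of the family, values of Plaur and Plau did not overlap between the sites. Plaur, the urokinase receptor, was higher in both perineal tumors, 27 and 36 (18.7 and 16.2 CPM against 8.57 to 13.0 CPM in the trunk tumors), with an edgeR adjusted p of 0.416. Plau, which is urokinase itself, was lower in both (63.8 and 52.0 CPM against 72.7 to 109 CPM), with an edgeR adjusted p of 0.463. These genes were named after their values had been seen.

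By line, the relative Adam33 had 1.82, 2.69 and 1.32 CPM in Osx-Cre;NT3 tumors 13, 18 and 25, then 4.51, 8.88 and 6.60 CPM in FSP1-Cre;NT3 tumors 27, 29 and 36, a log2 fold change of 1.77 (SE 0.44, edgeR adjusted p = 0.441). The matrix proteoglycan Spock3 had 0.0828, 0.182 and 0.169 CPM, then 0.583, 1.80 and 2.06 CPM, with a log2 fold change of 3.32 (SE 0.67, adjusted p = 0.425). In both genes the trunk tumor 29 lay with the perineal tumors of its line.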
